A study of Mus musculus with 34 samples.

Results

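This is a comparison of chromatin in round spermatids of SV129 mice with round spermatids of C57BL6 mice that carry intact Gcn5 (GCN5+/+, called WT below), made from nucleosome calls and subnucleosome peaks of ATAC-seq. That assay lets the transposase Tn5 insert sequencing adapters wherever DNA is exposed. The members are all 6 round spermatid libraries with intact Gcn5 among the 34 libraries of the series, chosen by their labels. SV129 has 4 libraries (2 technical repeats of each of 2 biological replicates), and WT has 2 libraries (2 biological replicates). The series also holds a meiotic fraction, elongating spermatids and mature sperm, and a background with homozygous floxed Gcn5 and Stra8-Cre, whose promoter acts as germ cells approach meiosis (cKO). Those lists serve below as readouts that did not define the members. The extraction protocol, the same for all samples, describes SV129 mice of 8 to 12 weeks with the testes of 11 animals pooled per collection. The ages and pooling of the C57BL6 mice are not given separately in the sources used here.

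Round spermatids are the haploid cells that leave meiosis with their nucleosomes still in place, before histones are hyperacetylated and exchanged for transition proteins and then protamines. They still transcribe, and much of the sperm head, acrosome and tail is laid down from genes switched on at this stage, many of them under CREM, an activator that binds cyclic-AMP response elements. In ATAC-seq, short subnucleosomal fragments mark open DNA at promoters and other regulatory sites, and longer fragments mark the nucleosomes that flank them. SV129 and C57BL6 are inbred strains whose genomes differ by many single-base and structural variants, and the C57BL6 genome is the mouse reference to which reads are usually aligned.

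For each background the authors deposited 1 list of each class, so that a difference has no replicate error and was not tested. Wilson 95% intervals cover counting error only and treat intervals as independent. The depth behind the lists is unknown, and strain, number of libraries, depth and the way the lists were made cannot be told apart; nor can fewer cells with an open site be told from less signal per cell. The SV129 list of subnucleosome peaks had 29243 entries over 5.23 Mb and the WT list 56480 over 10.97 Mb, while at the meiotic stage the same backgrounds had 33060 and 35822. The nucleosome lists were closer in length, with 230591 calls in SV129 and 253621 in WT, all 150 bp wide. Of 11 marker genes of round spermatids, 11 had a subnucleosome peak within 500 bp of a gene end in SV129 and 10 in WT, Tnp2 being the one without. Prm2 counted in both lists only through the peak at the start of its neighbour Prm3, and its own start had none. Of 9 Sertoli and Leydig cell markers and 6 blood cell markers, none had a peak in either background. A longer list of 25 Sertoli and Leydig cell genes had peaks at 1 (4.0%) in SV129 and 2 (8.0%) in WT. The spermatogonial markers had 0 of 5 in SV129 and 1 of 5 (Kit) in WT. A longer list of 18 spermatogonial genes had peaks at 8 in SV129 and 9 in WT, so the 5 markers do not stand for that list. Of 5 meiotic markers, 4 had a peak in both lists.

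Of the genes that pack the spermatid genome, Tnp1, Prm1 and Prm3 were open in both backgrounds, with peaks that differed in width and place, and Tnp2 in SV129 only. The sequences of 3 promoters are shown first because the same gene was covered by different bases in the 2 backgrounds. Each line gives the 250 bases before the listed start, 5′ to 3′, from RefSeq promoters of build GRCm38.p6, and capitals mark bases inside a round spermatid subnucleosome peak of the background named. Tnp1, which encodes transition protein 1, lies on the minus strand of chromosome 1 (these bases are chr1:73015900-73016149). Prm1 (chr16:10796824-10797073) encodes protamine 1, and Tnp2 (chr16:10788656-10788905) encodes transition protein 2. Both also lie on the minus strand.
Tnp1 in SV129: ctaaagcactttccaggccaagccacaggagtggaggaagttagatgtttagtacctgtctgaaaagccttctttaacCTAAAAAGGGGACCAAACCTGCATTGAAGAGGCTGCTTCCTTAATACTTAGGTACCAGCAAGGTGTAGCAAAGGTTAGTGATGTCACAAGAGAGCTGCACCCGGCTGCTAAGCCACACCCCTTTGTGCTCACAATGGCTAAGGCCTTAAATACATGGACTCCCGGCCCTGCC
Tnp1 in WT: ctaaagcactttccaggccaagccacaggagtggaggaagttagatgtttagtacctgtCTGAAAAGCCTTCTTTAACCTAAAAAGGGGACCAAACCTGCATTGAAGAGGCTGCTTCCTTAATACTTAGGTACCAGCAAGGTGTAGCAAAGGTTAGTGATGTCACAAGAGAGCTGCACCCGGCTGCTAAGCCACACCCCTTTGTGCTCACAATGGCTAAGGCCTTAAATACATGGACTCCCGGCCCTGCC
Prm1 in SV129: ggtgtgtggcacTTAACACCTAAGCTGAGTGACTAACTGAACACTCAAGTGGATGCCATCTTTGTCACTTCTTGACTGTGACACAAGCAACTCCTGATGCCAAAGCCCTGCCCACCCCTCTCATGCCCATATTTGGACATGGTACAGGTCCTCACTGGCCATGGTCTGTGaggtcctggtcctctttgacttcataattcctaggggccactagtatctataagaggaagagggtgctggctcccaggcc
Prm1 in WT: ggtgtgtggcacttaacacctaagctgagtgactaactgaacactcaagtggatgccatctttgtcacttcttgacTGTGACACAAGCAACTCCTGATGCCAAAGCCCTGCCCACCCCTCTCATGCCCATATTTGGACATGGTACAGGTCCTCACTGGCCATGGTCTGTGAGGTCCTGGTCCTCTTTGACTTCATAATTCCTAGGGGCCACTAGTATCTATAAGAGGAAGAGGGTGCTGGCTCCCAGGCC
Tnp2 in SV129: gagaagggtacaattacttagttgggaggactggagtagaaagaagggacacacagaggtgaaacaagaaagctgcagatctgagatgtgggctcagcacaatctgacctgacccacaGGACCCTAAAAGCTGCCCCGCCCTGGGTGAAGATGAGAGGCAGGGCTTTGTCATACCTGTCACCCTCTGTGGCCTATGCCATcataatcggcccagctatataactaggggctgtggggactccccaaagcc

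At Tnp1 the SV129 peak was 211 bp wide and the WT peak 438 bp, and both ran through the start. At Prm1 the SV129 peak (158 bp) was centred 159 bp before the start and ended short of it, whereas the WT peak (187 bp) was centred 81 bp before the start and covered it. The word TGACTTCA, which begins 64 bases before the Prm1 start, lay inside the WT peak and outside the SV129 peak. TGATGTCA, 94 bases before the Tnp1 start, lay inside both. These words differ by a base from TGACGTCA, the full cyclic-AMP response element. A match is a description and shows no binding. At Tnp2 the SV129 list had a peak of 82 bp, close to the narrowest peak of that list (80 bp), and the WT list had none. Prm3, the third gene of the protamine cluster, had a peak of 183 bp in SV129 and 224 bp in WT at its start. The window around Prm2 caught only this peak, and the start of Prm2 itself had no peak in either background. No nucleosome call was listed at Prm1 in either background. At the ends of Prm2 and Prm3 the WT list had nucleosome calls over 250 and 300 bp and the SV129 list none, while Tnp1 had 170 bp in SV129 and 485 bp in WT.

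Most open sites of SV129 round spermatids were also open in WT, and most open sites of WT were not in the SV129 list. Of the SV129 peaks, 26287 (89.9%, interval 89.5 to 90.2) overlapped a WT peak by at least 1 bp and 2956 did not. Of the WT peaks, 25443 (45%, 44.6 to 45.5) overlapped an SV129 peak and 31037 did not. At the meiotic stage the shares were closer, 80.0% of SV129 and 71.1% of WT peaks. Cutting the WT list by its deposited score to the length of the SV129 list brought the round spermatid shares to 74.7% of SV129 and 71.9% of WT peaks.

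The WT peaks that SV129 lacked were mostly low in the WT list. Only the WT list carries a score, on a scale that is not stated, so that it serves to rank peaks within WT. Its median was 31.2 for shared peaks and 11.4 for WT-only peaks. The share with an SV129 peak was 6.03% (5.44 to 6.68) in the lowest of 10 score groups of WT peaks, 32.5% in group 5 and 96.7% (96.2 to 97.1) in the highest. That highest group still held 188 WT-only peaks. They were narrower than the 5460 shared peaks beside them, with medians of 209 and 298 bp. They lay within 500 bp of a gene end in 4.26% of cases, against 42.9% of the shared ones, and over 50 kb from any gene in 49.5%, against 20.7%. In WT meiotic cells 124 of the 188 (66.0%) were listed again, and 29 (15.4%) in SV129 meiotic cells. The highest-scoring WT-only peak with no bp in the SV129 meiotic list was one of 235 bp near Aldoart1, a testis-specific aldolase gene, which lies 36563 bp away (score 86.5, 195 bp of it covered in WT meiotic cells). Another, 368 bp wide and 27697 bp from Itgb8, an integrin gene, was covered in part in WT meiotic, cKO meiotic and cKO round cells (346, 272 and 216 bp), with 0 nucleosome calls around it in SV129 and 9 in WT.

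**Figure D1:**
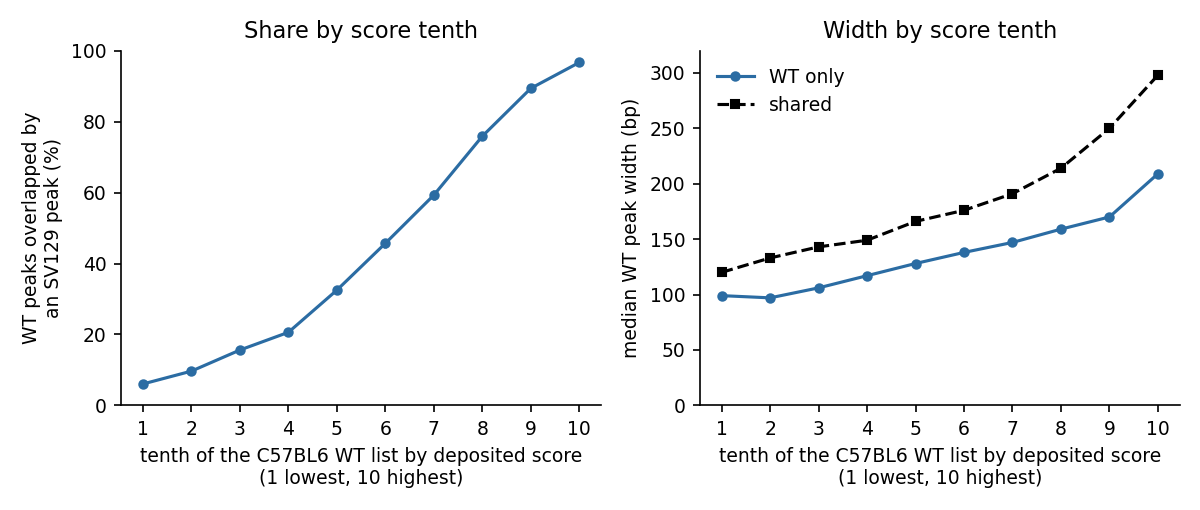
C57BL6 WT subnucleosome peaks in 10 groups by deposited score (x axis, 1 lowest to 10 highest). Left, percent overlapped by an SV129 peak with Wilson 95% intervals, from 6.03% to 96.7%; right, median WT peak width in bp for WT-only (circles) and shared (squares) peaks, the shared ones being wider in every group.

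Where both backgrounds had a peak, the SV129 peak was usually the narrower one and lay inside the WT peak. Over 24521 pairs in which each peak overlapped exactly 1 of the other list, the median width was 157 bp in SV129 and 216 bp in WT, and the median ratio of SV129 over WT was 0.769 (quartiles 0.598 and 0.925). The SV129 peak was narrower in 83.6% of pairs and wider in 15.9%. It lay wholly inside the WT peak in 60.6%, and the reverse held in 5.26%. The trimming was symmetrical, with a median of 21 bp at either edge. At listed transcription starts the medians were 216 bp in SV129 and 296 bp in WT (ratio 0.757), and outside genes 137 and 190 bp (ratio 0.773). From the lowest to the highest quartile of WT score the ratio was 0.779, 0.73, 0.754 and 0.805, so SV129 peaks were narrower at weak and strong WT sites alike. In 839 cases 1 WT peak, with a median of 560 bp, held 2 or more SV129 peaks, while 45 SV129 peaks held 2 WT peaks.

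The start of Clock, the circadian transcription factor, shows such a site. The 250 bases before its first listed start (chr5:76304793-76305042, minus strand) are printed with SV129 and WT peaks in capitals in turn.
Clock in SV129: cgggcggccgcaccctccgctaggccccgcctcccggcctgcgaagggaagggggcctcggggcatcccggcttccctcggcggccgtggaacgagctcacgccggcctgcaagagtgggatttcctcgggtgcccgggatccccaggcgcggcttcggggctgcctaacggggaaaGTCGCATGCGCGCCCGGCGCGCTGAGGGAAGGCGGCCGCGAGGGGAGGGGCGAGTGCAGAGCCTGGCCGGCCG
Clock in WT: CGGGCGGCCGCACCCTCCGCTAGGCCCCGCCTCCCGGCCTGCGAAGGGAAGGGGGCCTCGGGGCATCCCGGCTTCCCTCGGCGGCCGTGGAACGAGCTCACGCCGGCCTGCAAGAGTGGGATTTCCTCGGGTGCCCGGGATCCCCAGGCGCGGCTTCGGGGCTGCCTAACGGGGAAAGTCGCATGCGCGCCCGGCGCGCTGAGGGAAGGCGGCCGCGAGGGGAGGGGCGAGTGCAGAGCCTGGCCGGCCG
The SV129 peak was 80 bp wide and the WT peak 668 bp, a ratio of 0.12, and it took the 73 bases nearest the start of the 250 that WT covered in full. The other extreme pairs on that side were the start shared by Nkapd1 and Pih1d2 (80 bp in SV129, 734 bp in WT), Fbxl17, an F-box gene (119 and 1078 bp), the start of Tmem186 beside Pmm2 (81 and 725 bp) and a site inside Epb41l3, which encodes a membrane skeleton protein (115 and 969 bp). In the opposite direction the largest ratios were smaller. A site inside Nkain2 had 310 bp in SV129 and 90 bp in WT, and one inside Sfi1, a centrosome gene, had 555 and 166 bp. A site inside Ppp2r2b, a phosphatase subunit gene, had 275 and 83 bp.

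Peaks of 1 background only were narrower than shared peaks in both backgrounds. SV129-only peaks had a median of 98 bp and shared SV129 peaks 157 bp. WT-only peaks had a median of 121 bp and shared WT peaks 220 bp. Under 100 bp lay 52.6% of SV129-only and 30.1% of WT-only peaks, and 17 SV129-only against 914 WT-only peaks reached 300 bp. At listed starts the SV129-only peaks stayed near the general width (103 bp), while WT-only peaks there had a median of 156 bp. Over whole lists the medians nearly met, at 149 bp in SV129 and 154 bp in WT, with narrow WT-only peaks making up most of the WT list. The widest SV129-only peaks were 1 of 644 bp at Gm52481 on the Y chromosome, with 20 nucleosome calls around it in SV129 and 2 in WT, 1 of 537 bp 39999 bp from Matn1, a matrilin gene of cartilage, and 1 of 483 bp at 1600014C10Rik. None of these 3 was listed in a meiotic list. The widest WT-only peaks were 1 of 968 bp at the start of Me1, 1 of 935 bp 20341 bp from Zfp706, 1 of 901 bp inside Med10, a Mediator subunit gene, and others of 872 bp at Atp11b and 843 bp at Casd1, a sialic acid acetyltransferase gene. Apart from the site near Zfp706, these were open in SV129 meiotic cells, over 177 to 500 bp.

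**Figure D2:**
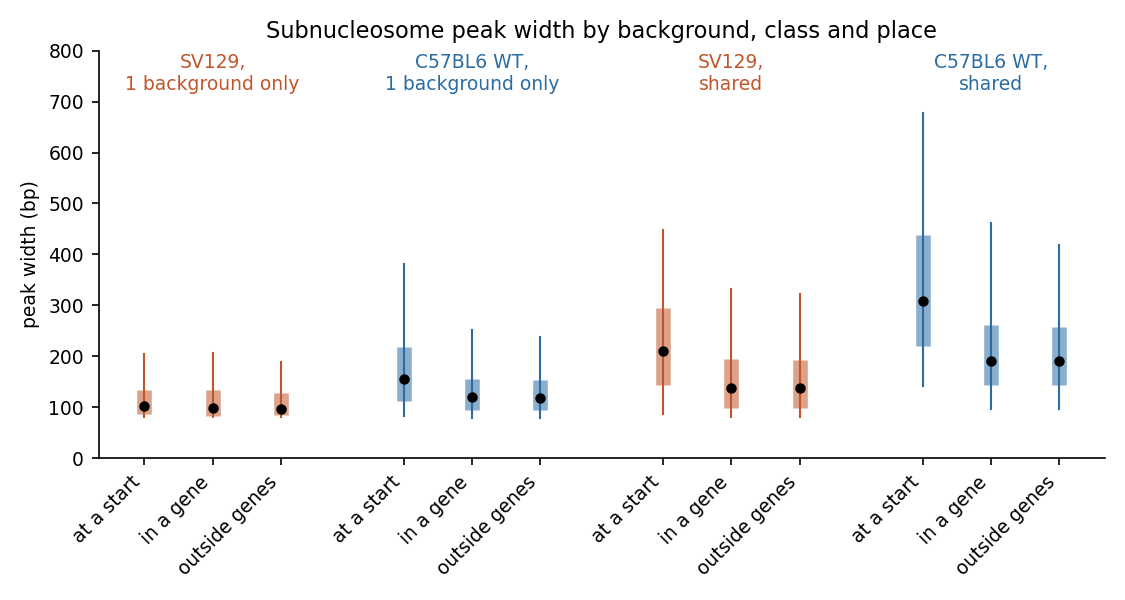
Width in bp (y axis) of subnucleosome peaks of round spermatids, for peaks of 1 background only (left) and shared peaks (right), SV129 in orange and C57BL6 WT in blue, split by place. Dots are medians, thick bars quartiles and lines the range from percentile 5 to 95; medians at starts were 103 bp (SV129 only), 156 bp (WT only), 211 bp (SV129 shared) and 309 bp (WT shared).

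The sites of 1 background lay away from gene ends more often than shared sites, and the WT-only sites lay farthest. Of SV129-only peaks 11.2% (10.1 to 12.4) were centred within 500 bp of a gene end, and of WT-only peaks 7.67% (7.37 to 7.97), while shared peaks had 31.7% in SV129 and 30.9% in WT. Such windows hold 1.52% of the sequence. Outside genes lay 47.1% of SV129-only and 55.1% of WT-only peaks, and those outside were a median of 20430 bp from the nearest gene in SV129 and 72809 bp in WT. More than 50 kb from any gene lay 16.3% of SV129-only and 33.0% of WT-only peaks. Shared peaks had 18.1% in SV129 and 18.5% in WT. Nucleosome calls of 1 background also lay farther out in WT than in SV129. Of SV129-only calls 28.0% and of WT-only calls 43.7% lay more than 50 kb from a gene, beside 21.3% of shared calls in SV129 and 22.9% in WT, so that SV129-only calls, unlike SV129-only peaks, exceeded the shared ones. Outside genes they lay at median distances of 57255 and 162084 bp.

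**Figure D3:**
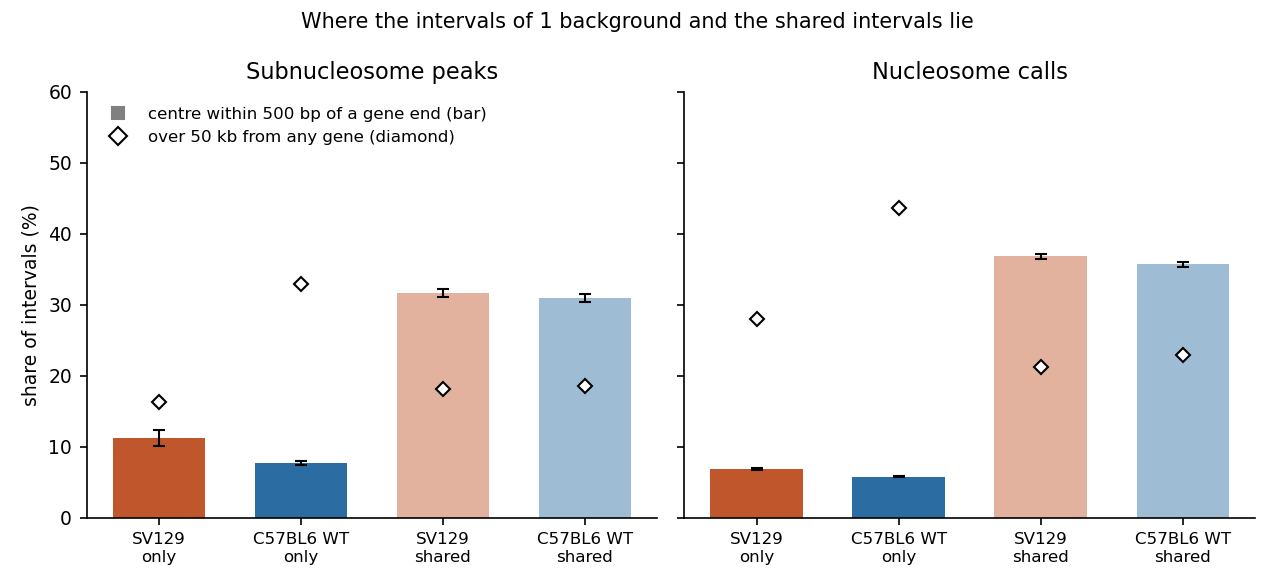
Share of intervals (y axis, %) centred within 500 bp of a gene end (bars, with Wilson 95% intervals) and over 50 kb from any gene (diamonds), for subnucleosome peaks and nucleosome calls. Intervals of 1 background only are at or below 11.2% at gene ends against 30.9% or more for shared ones, and the WT-only diamonds (33.0% and 43.7%) are the highest in each panel.

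Counts also differed by chromosome. The ratio of SV129 to WT peak counts was lowest on chromosome 3 (1692 against 3876, ratio 0.437), chromosome 1 (0.457) and chromosome 18 (0.458), which hold 6.15, 6.16 and 5.63 protein-coding genes per Mb. It was highest among autosomes on chromosome 11 (0.615) and chromosome 7 (0.614), which hold 13.2 and 14.0. On the X chromosome both lists were short, with 227 peaks in SV129 and 336 in WT, of which 52 and 165 were in 1 background only, and 307 and 517 nucleosome calls. Densest in WT-only peaks was a 1 Mb bin of chromosome 3 from 142 Mb, which holds Bmpr1b and the guanylate-binding protein genes, with 37 WT-only peaks against 1 SV129-only.

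SV129-only peaks were sparse, in 1381 of 2732 bins with a median of 2. Some of the densest bins held multicopy genes, and others, several of them on chromosome 7, held many genes. The densest was chromosome 8 from 20 Mb, which holds Defb33, a beta-defensin gene, and predicted Gm genes, with 19 SV129-only peaks of 38 in SV129, against 3 WT-only peaks of 21 in WT. Of those 19, 5 were listed in SV129 meiotic cells, 1 in WT and 0 in cKO meiotic cells. The next bins, chromosome 5 from 140 Mb and chromosome 7 from 45 Mb, had 12 SV129-only peaks each and hold 15 and 67 genes. Further bins of chromosome 7 followed with 11 each and hold 32 and 42 genes. Among bins with 10, those of chromosome 5 with 12 and 18 genes and of chromosome 7 with 55 are not described further. On chromosome 7, 15.4% of SV129 peaks were SV129 only, the highest share among autosomes. Chromosome 14 from 5 Mb, a cluster of predicted Gm genes, had 11 SV129 peaks, 10 of them SV129 only, and 1 WT peak. Chromosome 5 from 15 Mb, with the testis genes Speer4c and Speer4d, had 10 SV129-only and 19 WT-only peaks. The widest joined run of SV129-only nucleosome calls, 13 calls over 832 bp on chromosome 14 near Gm3424, also lay in such a cluster, and 575 bp of it were covered in SV129 meiotic cells and 0 bp in WT. Runs of 770 bp lay on chromosome 12, where the nearest genes were Gm32719 at 12600 bp and Zfp386 at 430212 bp, and 1 of 730 bp lay 26251 bp from the major urinary protein pseudogene Mup-ps12. The part of copy number, and of reads that match several copies, was not tested.

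Around the listed transcription starts both backgrounds had peaks just before the start and nucleosome calls densest after it. Nucleosome calls did not leave the open position free. From 125 to 25 bp before the start, shared WT calls rose from 164.0 to 186.0 per 1000 starts. Shared SV129 calls went from 154.0 to 142.0 over the same stretch. Shared peaks were densest 25 bp before the start, at 110.0 centres per 1000 starts in SV129 and 99.3 in WT (50 bp bins), and shared nucleosome calls 125 bp after it, at 231.0 and 224.0. Peaks of 1 background added 2.82 per 1000 starts at the open position in SV129 and 19.5 in WT. WT-only peaks had another maximum 275 bp after the start, at 8.65, where SV129-only peaks had 0.658. Nucleosome calls of 1 background differed in where they sat. In the bin 25 bp before the start, SV129-only calls had 17.0 per 1000 starts and WT-only calls 33.3, and shared calls 142.0 and 186.0. Downstream the order turned round, with 41.3 SV129-only and 34.5 WT-only calls 125 bp after the start, and 30.1 and 22.2 calls 325 bp after it. SV129 calls thus left the open position emptier and took more of the first positions inside the gene.

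**Figure D4:**
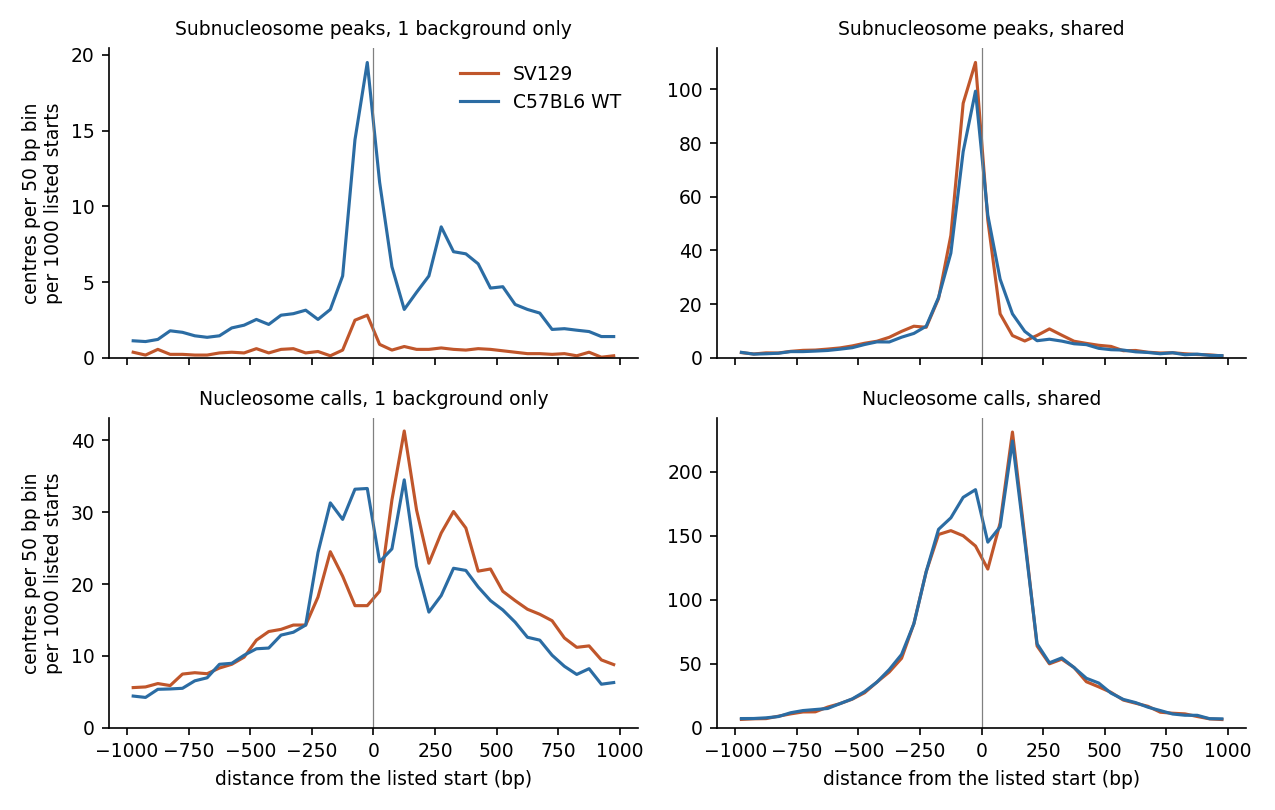
Centres per 50 bp bin per 1000 listed starts (y axis) by distance from the start in bp (x axis, negative is upstream), SV129 in orange and C57BL6 WT in blue; left, intervals of 1 background only; right, shared intervals. The WT-only line peaks at 19.5 for subnucleosome peaks, and in nucleosome calls of 1 background the lines cross just after the start.

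A smaller share of nucleosome calls than of peaks was common to both backgrounds. Shared were 93578 calls in SV129 (40.6%) and 102605 in WT (40.5%). Of all calls, 28.9% in SV129 and 26.5% in WT had a counterpart centred within 20 bp. Calls of 1 list often overlap each other, so that a near counterpart is partly given by the overlap that made a call shared. Shared calls stood beside open sites: 55.5% in SV129 and 67.9% in WT had a subnucleosome peak of their own background within 200 bp. Among calls of 1 background, 6.64% in SV129 and 26.6% in WT did. WT-only calls thus came with WT peaks far more often than SV129-only calls with SV129 peaks. The longer WT peak list moves with this, and its part was not tested.

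Few genes were open in SV129 only, and these were covered by little. Of 21883 protein-coding genes, 8766 had a subnucleosome peak within 500 bp of an annotated end in SV129 (40.1%) and 10174 in WT (46.5%), and 8554 were shared, which is 97.6% of the SV129 genes and 84.1% of the WT genes. In SV129 only were 212 genes (0.969%) and in WT only 1620 (7.4%). At shared genes the median covered length was 242 bp in SV129 and 355 bp in WT. At the genes of 1 background it was 97 bp in SV129 and 156 bp in WT. These counts changed with the WT list used. With that list cut by score to the SV129 length, 869 genes were in SV129 only and 521 in WT only. The cut drops the lowest-scoring WT peaks, and the SV129 list, having no score, could not be cut alike.

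The SV129-only genes with the most covered bases were few of kind. Gm52481, a predicted gene on the Y chromosome, had 762 bp, and Gm36079, a predicted gene on chromosome 13, had 723 bp. Next came 1600014C10Rik, an uncharacterized gene, with 383 bp, Plekhg2, which encodes a guanine nucleotide exchange factor (296 bp), C1qtnf6, a secreted C1q and TNF-related protein gene (285 bp), and Ttc33 (285 bp). They were followed by Bnip5 (254 bp), Prss46, a serine protease gene (247 bp), Acaa1a, a peroxisomal thiolase gene (224 bp), and Zbtb12, a zinc finger gene (210 bp). WT had 0 bp at each. At the meiotic stage 6 of the 10 were open in both backgrounds, for instance Ttc33, which had 477 bp in SV129 and 454 bp in WT, Acaa1a 296 and 553 bp, and Zbtb12 172 and 409 bp. Gm36079 and Bnip5 were open there in SV129 only, with 724 and 83 bp. Gm52481 had 0 bp in SV129 and 47 bp in WT there, and 1600014C10Rik 0 bp in both.

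WT-only genes were covered over longer stretches. Me1, which encodes the NADPH-producing malic enzyme, had 828 bp in WT and 0 bp in SV129. Neo1, a receptor for netrins, had 780 bp and Dtnb, a dystrobrevin, 766 bp. The shared start of Gng5, a G protein subunit, and Spata1, a spermatogenesis-associated gene, had 737 bp. Snx9, a membrane-trafficking sorting nexin, had 707 bp, Ubxn2a 705 bp, Vps54, a subunit of the GARP tethering complex, 696 bp, Wdr5, a subunit of histone H3K4 methyltransferase complexes, 668 bp, and Atp11b, a lipid flippase, 667 bp. All of them had peaks in SV129 meiotic cells, 295 bp at Me1, 651 bp at Wdr5 and 581 bp at Ubxn2a among them, so that they were missing from the SV129 list at the round stage and not before. All but Atp11b had nucleosome calls in SV129 round spermatids, 372 bp at Me1 against 402 bp in WT and 360 bp at Gng5 against 690 bp.

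The promoters of a WT-only gene and of 2 SV129-only genes are printed for comparison, with capitals for bases in the peak of the background named. Me1 (chr9:86695915-86696164, minus strand) is open over the whole stretch in WT. 1600014C10Rik (chr7:38183537-38183786, plus strand, listed start 2) is open over the whole stretch in SV129. Lyzl6 (chr11:103638891-103639140, minus strand), a gene for a lysozyme-like protein, had peaks in SV129 only at both the meiotic and the round stage.
Me1 in WT: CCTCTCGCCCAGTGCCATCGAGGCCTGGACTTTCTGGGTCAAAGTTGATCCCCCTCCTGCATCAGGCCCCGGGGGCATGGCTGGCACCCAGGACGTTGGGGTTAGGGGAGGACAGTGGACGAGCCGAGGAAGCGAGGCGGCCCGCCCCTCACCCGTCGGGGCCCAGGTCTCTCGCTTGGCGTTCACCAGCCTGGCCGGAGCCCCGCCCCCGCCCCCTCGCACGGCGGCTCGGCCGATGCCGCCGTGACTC
1600014C10Rik in SV129: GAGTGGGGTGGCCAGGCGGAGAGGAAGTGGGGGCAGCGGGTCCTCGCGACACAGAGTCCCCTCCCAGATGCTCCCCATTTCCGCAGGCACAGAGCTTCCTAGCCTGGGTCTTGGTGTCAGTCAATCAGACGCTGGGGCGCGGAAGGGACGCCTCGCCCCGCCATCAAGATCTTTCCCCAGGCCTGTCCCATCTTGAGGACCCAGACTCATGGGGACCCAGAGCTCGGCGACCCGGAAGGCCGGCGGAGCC
Lyzl6 in SV129: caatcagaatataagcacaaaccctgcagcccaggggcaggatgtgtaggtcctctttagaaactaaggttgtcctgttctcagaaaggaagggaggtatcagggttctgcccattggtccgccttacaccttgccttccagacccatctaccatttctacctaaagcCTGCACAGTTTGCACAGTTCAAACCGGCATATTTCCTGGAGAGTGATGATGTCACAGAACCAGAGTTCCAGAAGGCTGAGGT
The Me1 stretch is 72.0% G and C and holds GGGCGG, the GC box, on its other strand beginning 109, 48 and 42 bases before the start. Lyzl6 is 49.2% G and C and holds TGATGTCA, the word also found at Tnp1, 36 bases before the start, inside its SV129 peak.

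Such features were counted over all 17491 genes with a listed start, in the first listed promoter of each (300 bases, both strands, each word counted whether or not it overlaps another). Classed by subnucleosome peak within 500 bp of that start, promoters open in both backgrounds were richest in CpG, with 81.7% at or above an observed-over-expected CpG ratio of 0.6, against 49.3% of SV129-only and 60.2% of WT-only promoters, 18.9% of those closed in both, and 48.3% of all. TGACGTCA was in 0.676% of SV129-only promoters (1 of 148), 1.52% of WT-only, 4.49% of promoters open in both and 2.34% of all. TGATGTCA, added after it had been read in Tnp1 and Lyzl6, was in 6.08% of SV129-only (9 of 148), 4.33% of WT-only, 2.82% of shared, 4.63% of closed and 3.86% of all promoters. TGACTTCA was in 0.676%, 1.44% and 0.876% of those classes and 1.23% of all. GGGCGG was in 45.9% of SV129-only, 57.8% of WT-only, 67.2% of shared and 46.3% of all promoters, CCAAT in 33.1%, 35.7%, 42.7% and 39.0%, and TATAAA in 7.43%, 8.18%, 5.86% and 13.3%. Promoters of 1 background thus lay between the shared and the closed ones in CpG content.

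Genes of spermatid function were open more often than genes at large, of which 40.1% had a peak in SV129 and 46.5% in WT. Of genes at large, 0.969% were open in SV129 only and 7.4% in WT only. Being open more often was not particular to spermatid genes. Of 50 housekeeping genes, 36 had a peak in SV129 and 41 in WT, and of 48 meiotic genes 36 and 39. Both lists had larger open shares than the flagellum and axoneme genes in either background. Genes at large include 1110 olfactory and 353 vomeronasal receptor genes, few of which were open. Among 51 flagellum and axoneme genes, 30 (58.8%) had a peak in SV129 and 37 (72.5%) in WT, with 0 in SV129 only and 7 (13.7%) in WT only. These were Tssk4, a testis-specific kinase (483 bp), Septin4, a component of the sperm annulus (318 bp), Ccdc40, needed for dynein arm assembly (194 bp), Drc1 and Drc7 of the nexin-dynein regulatory complex (136 and 102 bp), the dynein Dnah17 (107 bp) and Odf2, an outer dense fibre gene (10 bp). Among 27 acrosome and fertilization genes, Spaca4, a sperm surface protein gene, was open in SV129 only (81 bp), and Izumo3 and Zpbp, both of acrosome formation, in WT only (217 and 158 bp), which is 3.7% and 7.41% of the list. Among 33 genes of sperm metabolism and ion channels, Catspere1, a subunit of the CatSper calcium channel, was open in SV129 only (167 bp) and Catsper1, its pore subunit, in WT only (112 bp), as was the glucose transporter gene Slc2a3 (130 bp), 3.03% and 6.06% of that list. The WT-only shares of both these lists lay near that of all genes.

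Regulators of the spermatid programme were mostly open in both, with less covered sequence in SV129. The same held for shared genes at large, with medians of 242 bp in SV129 and 355 bp in WT. Of 19 transcription regulators, 10 had a peak in SV129 and 12 in WT. Taf7l, a germ cell TFIID subunit (123 bp), and Sox30 (130 bp) were WT only, 10.5% of the list beside 7.4% of all genes, and 0 were SV129 only. Mybl1, a regulator of meiotic genes, had 363 bp in SV129 and 827 bp in WT. Ctcfl, the testis paralog of CTCF also called BORIS, had 334 and 767 bp, and Tcfl5 289 and 698 bp. Of 24 chromatin regulators of spermiogenesis, Epc2, a NuA4 acetyltransferase subunit, was SV129 only (95 bp), and Ube2a, a ubiquitin-conjugating enzyme (163 bp), and Kat2a, which encodes Gcn5 itself (83 bp), were WT only. That is 4.17% and 8.33% of the list, beside 0.969% and 7.4% of all genes. In meiotic cells Kat2a had 120 bp in SV129 and 107 bp in WT. A list of 15 histone variant genes holds testis variants and also general ones such as H2ax. All 13 of them open in SV129 were open in WT, with H2bc1, the testis H2B, at 227 and 1071 bp.

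Other lists had WT-only shares on either side of the 7.4% of all genes, and SV129-only shares are read beside 0.969%. Of 50 housekeeping genes, 36 were open in SV129 and 41 in WT, with 0 in SV129 only and 5 (10.0%) in WT only. The WT-only ones included Atp5a1 of ATP synthase (464 bp), the proteasome subunit Psmb4 (276 bp), Pgk1 of glycolysis (189 bp) and Hprt of purine salvage (148 bp). Those named were open in SV129 meiotic cells too, Pgk1 with 384 bp in SV129 and 474 bp in WT. Pgk1 and Hprt lie on the X chromosome. Of 48 meiotic genes, 36 and 39 were open, with Mlh3 (263 bp), Smc1b (259 bp) and the X-linked Tex11 (157 bp) WT only, 6.25% of the list. Of 397 genes named Zfp, 197 and 230 were open, 9 (2.27%) in SV129 only and 42 (10.6%) in WT only. The SV129-only ones were led by Zfp985 (196 bp) and the WT-only ones by Zfp941 (570 bp) and Zfp12 (474 bp). Of 1110 olfactory receptor genes 8 were open in SV129 and 24 in WT, of 353 vomeronasal receptor genes 3 and 4, of 39 Hox cluster genes 3 and 4, and of 51 testis multicopy genes 10 and 12. WT-only shares in these lists were 1.44%, 0.283%, 5.13% and 3.92% in that order. Of 17 spermatid RNA regulators 11 and 12 were open, Tdrd7, a scaffold of the chromatoid body, being WT only.

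Nucleosome calls at gene ends leaned the opposite way. They were listed at 10601 genes in SV129 (48.4%) and 9952 in WT (45.5%), with 8563 shared, 2038 in SV129 only (9.31%) and 1389 in WT only (6.35%). Of the 2038 genes, 1324 had no subnucleosome peak in either background, and of the 1389 genes, 555. Most SV129-only genes by calls were thus closed in both lists, as were 52.5% of all genes. Among the genes closed in both, 11.5% were SV129 only by calls and 4.83% WT only. Gm36079 led the SV129-only genes by calls with 1125 bp. Behind it came the olfactory receptor gene Olfr455 (805 bp), the lysine methyltransferase gene Setd7 (787 bp), the adrenergic receptor gene Adra2a (750 bp), Csf1, a growth factor for macrophages (703 bp), and Crmp1, of the axon (700 bp), then Gstm4, Zfp996, Tcp11l1 and Gm38699 at 654 to 610 bp. WT-only genes were led by Acot10 (707 bp), a thioesterase gene, Fam166a (647 bp), the Wnt inhibitor Nkd1 (630 bp), the phosphatase gene Ptprz1 (630 bp) and Mtfr1, of mitochondrial fission (603 bp). Those 5 were open in both backgrounds, with 130 to 344 bp of peak in SV129 at Acot10, Fam166a, Ptprz1 and Mtfr1 and 110 bp at Nkd1.

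Developmental regulators had fewer peaks and fewer calls than genes at large, and their calls leaned to SV129. Of 89 transcription factor genes of development, 4 (4.49%) had a subnucleosome peak in SV129 and 14 (15.7%) in WT, beside 40.1% and 46.5% of all genes, and 37 (41.6%) had a nucleosome call in SV129 and 24 (27.0%) in WT, beside 48.4% and 45.5%. In calls, 21 (23.6%) were SV129 only and 8 (8.99%) WT only, beside 9.31% and 6.35% of all genes. In peaks, Sox11 was SV129 only (128 bp) and 11 were WT only, among them Tbx20 (283 bp), Isl1 (204 bp), Zic1 (185 bp), Lhx1 (157 bp) and Atoh1 (156 bp). The SV129-only calls included Gbx2 (500 bp), Atoh1 (385 bp), Emx1 (375 bp), Foxd3 (328 bp) and Otx1 (325 bp), and the WT-only ones included Zic2 (395 bp). Sertoli and Leydig cell genes had calls at 9 of 25 (36%) in SV129 and 2 of 25 (8.0%) in WT, below the 48.4% and 45.5% of all genes in both. The 7 in SV129 only were Amh (325 bp), Nr5a1 (320 bp), Acta2 (215 bp), Inha (175 bp), Cyp11a1 (150 bp), Clu (136 bp) and Wt1 (97 bp), and none of these had a subnucleosome peak in either round spermatid list. Of 81 genes of immune families known to vary between mouse strains, 23 (28.4%) and 8 (9.88%) had a call, 17 (21.0%) in SV129 only, such as Raet1e (337 bp), Ifi204 (325 bp), H60b (300 bp) and Gbp2 (210 bp), and 2 in WT only. Of 18 spermatogonial genes, 4 were SV129 only by calls (Sohlh2 with 300 bp, Ret, Id4 and Sall4) and 1 WT only. Of the 9 defining Sertoli and Leydig markers, Wt1, Amh and Cyp11a1 had calls in SV129 (572 bp in all) and none in WT, and all 9 had 0 bp of peak in both. The part of somatic cells in these calls was not tested.

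**Figure D5:**
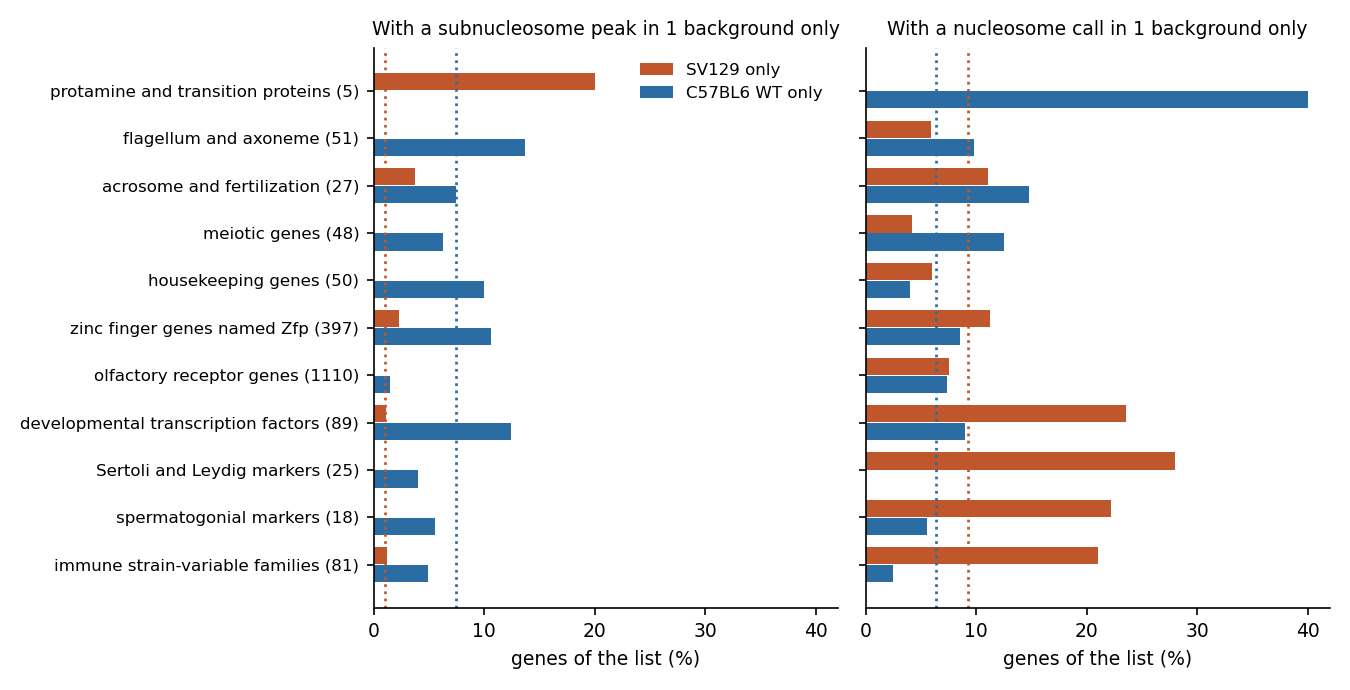
Percent of the genes of each list (number of genes in brackets) with a subnucleosome peak (left) or a nucleosome call (right) at an end in SV129 only (orange) or C57BL6 WT only (blue); dotted lines are the same shares over all 21883 genes, 0.969% and 7.4% for peaks and 9.31% and 6.35% for calls. In calls, 4 lists (developmental, Sertoli and Leydig, spermatogonial and immune) lie above 20% in SV129 only.

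In both classes at the same time, 37 genes were SV129 only and 212 WT only. The 37 were 17.5% of genes SV129 only by peak, beside 9.31% of all genes SV129 only by call. The 212 were 13.1% of genes WT only by peak, beside 6.35% of all genes WT only by call. Among the 37 were Gm36079, C1qtnf6 (285 bp of peak and 300 bp of calls), the X-linked fibrous sheath gene Fsip2l (155 and 340 bp) and Abo, the blood group transferase gene (188 and 150 bp). Among the 212 were Ndst3, a heparan sulphate enzyme gene (472 bp of peak and 485 bp of calls), and the replication-dependent histone genes H4c11 (553 and 355 bp), H2ac7 and H2bc7, which share a promoter (402 and 300 bp). The classes also crossed: 253 genes were WT only by peak and SV129 only by call, and 19 the reverse. The 253 were 15.6% of genes WT only by peak, beside 9.31% of all genes SV129 only by call. The 19 were 8.96% of genes SV129 only by peak, beside 6.35% of all genes WT only by call. The crossed shares thus also lay above those of all genes. Genes WT only by peak (1620) were more often SV129 only by call (253) than WT only by call (212).

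The earlier stage served as a readout that had not defined these sites. Of SV129-only peaks 27.0% were listed in SV129 meiotic cells, 22.2% in WT meiotic cells and 7.0% in cKO meiotic cells. Of WT-only peaks 18.3% were listed in SV129, 24.2% in WT and 7.86% in cKO meiotic cells. Each set was thus met more often in its own background. The meiotic list of SV129 covers 6.08 Mb and that of WT 8.13 Mb, and the part of list length in these shares was not tested. In mature sperm 6.39% of SV129-only peaks were listed again in SV129 and 1.25% in WT, lists of 10715 and 3024 peaks. Of the 212 SV129-only genes, 50.9% had a peak in SV129 meiotic cells and 52.4% in WT, while of the 1620 WT-only genes 56.1% had one in SV129 and 66.4% in WT.

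A small set of sites kept to 1 background at both stages. For SV129, 334 sites (11.3% of its 2956) were listed in SV129 meiotic cells and in none of the WT and cKO lists of the meiotic and round stages. Their median width was 108 bp, and 22 were at gene ends. For WT, 2942 sites (9.48% of its 31037) were listed in WT meiotic cells and in neither SV129 list, with a median of 136 bp and 395 at gene ends. Of these, 319 were also in cKO meiotic cells, which share the C57BL6 background, with a median of 151 bp.

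The widest SV129 site of this kind was inside Gm36079 (chr13:120026792-120027134), 343 bp wide at the round stage, with 311 bp of it covered at the meiotic stage and 8 nucleosome calls around it in SV129 and 0 in WT. It was followed by sites near Cycs, the cytochrome c gene (335 bp), inside Ube2w, a ubiquitin-conjugating enzyme gene (301 bp), near Adamts5, a matrix protease gene (297 bp), and again inside Gm36079 (285 bp). Besides Gm36079, the genes with such a site at an end were led by Bnip5 (254 bp), Tescl (199 bp), Zfp985 (196 bp), Abo (188 bp) and Lyzl6 (130 bp), followed by Ifi211, an interferon-inducible gene, the helicase gene Pif1, Fam240b and Gm5622 at 95 to 91 bp. None of them had any peak in the WT or cKO lists of either stage. In sperm, Abo had 184 bp in SV129 and 142 bp in WT.

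In WT the recurring genes were led by Ptbp3, a splicing regulator (542 bp in WT round and 372 bp in WT meiotic cells), Phc1 of the Polycomb repressive complex (515 and 391 bp), Actg1, cytoplasmic gamma actin (480 and 122 bp), Gm52799 (479 and 257 bp) and the kinase gene Mark1 (430 and 127 bp). All 5 had 0 bp in the cKO lists of both stages. Those met in cKO meiotic cells too were led by Zfp282, a zinc finger gene, whose WT round spermatid peak (chr6:47877355-47878171) was 817 bp wide, with 442 bp of it covered in WT and 82 bp in cKO meiotic cells. The deposited score of that WT peak was 11.2, beside a median of 11.4 for WT-only peaks. Zfp282 is shown with its WT peak in capitals (chr6:47877305-47877554, plus strand), a promoter with no peak in SV129 at either stage.
Zfp282 in WT: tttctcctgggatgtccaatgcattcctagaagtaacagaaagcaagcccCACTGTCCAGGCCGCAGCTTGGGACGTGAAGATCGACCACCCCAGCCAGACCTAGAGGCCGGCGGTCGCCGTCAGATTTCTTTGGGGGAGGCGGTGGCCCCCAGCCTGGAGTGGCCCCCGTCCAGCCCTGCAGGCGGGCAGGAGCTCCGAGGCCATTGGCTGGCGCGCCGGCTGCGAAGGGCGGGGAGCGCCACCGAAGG
Away from gene ends, such sites included 1 of 579 bp near Cyth3, of which 467 bp were covered in WT meiotic and 188 bp in cKO meiotic cells, 1 of 493 bp inside Wrn, a RecQ helicase gene (304 and 236 bp covered), and 1 of 380 bp inside Adam18, a testis metalloprotease family gene, covered over its whole length in both. Their coordinates are free of SV129 peaks at both stages.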

How the data were processed

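ATAC-seq libraries of purified germ cells were grouped by their labels. Per the labels' protocols, SV129 germ cells were separated by sedimentation into fractions of at least 85% purity, 200000 round spermatids were used per reaction, Tn5 was used at 2.5 and 5.0 U in parallel, and DNA was amplified over 12 PCR cycles. STAR 2.5.2a, MACS2 2.1.0.20140616 and build GRCm38/mm10 are listed, without roles, per the submitters' processing notes. The steps that divided fragments into classes, called peaks and merged replicates are not given in the sources used here. The authors deposited 1 interval list per group and class, and the WT peak names carry 1 library only. The score in column 5 is as the authors deposited it, 0 for every SV129 peak and from 3.01 up for WT peaks. It ranked WT peaks and nothing else. Depth is unknown.

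Intervals were shared from 1 bp of overlap. A gene counted as occupied when an interval covered a base within 500 bp of either annotated end (RefSeq, GRCm38.p6, 21883 protein-coding genes). Listed starts were known for 17491 genes (79.9%), none on chromosome 18. Shares have Wilson 95% intervals. The interval arithmetic was tested on simulated intervals (Python 3.11.15, pandas 2.3.3, numpy 2.4.6, scipy 1.17.1). With 1 list per group no test between backgrounds was possible.

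Named by rule were the 10 genes per class and background with most covered bases and 0 bp in the other, up to 10 recurring genes each way, list members in 1 background only or with the largest differences, the 5 widest sites and the 5 largest width ratios each way, and the protamine genes. The highest-scoring sites, the genes in both classes, the densest bins and the motifs were chosen after their values were seen. The members and gene lists were chosen with earlier results of these data known. Alternatives were other overlaps, gaps, windows, widths and a WT list cut by score. The 500 bp window around listed starts was added after seeing the data. Some genes that the rule would name are not reported here.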

Additional observations from a re-analysis of the deposited data

Results flagged for a closer look

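More genes had a nucleosome call near an end in SV129 round spermatids (10601) than in WT (9952), a difference of 649. In meiotic cells fewer had one in SV129 (10874) than in WT (12541), a difference of -1667. The sign thus turned between the stages, and this change was not tested. The meiotic nucleosome lists themselves had 199111 calls in SV129 and 329678 in WT.

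Scaffolds outside chromosomes 1 to 19, X and Y were in no comparison by gene or place. They held 15 SV129-only of 53 SV129 subnucleosome peaks and 27 WT-only of 63 WT peaks. Of nucleosome calls there, SV129 had 1536, of which 1105 were SV129 only, and WT had 285, of which 46 were WT only.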

How the results depend on the processing

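No paired analysis was possible because each background has 1 deposited list and no column per library, and for the same reason no replicate could be left out. Of 59 alternatives over 17 results 22 stayed within their margin and 37 moved. The order of the 2 gene counts by peak turned with the WT list cut by score. The cause of a move was not tested beyond what the setting itself changes. The share of subnucleosome peaks met in the other list was 88.6% in SV129 and 38% in WT with 50% of the peak covered, 71.0% and 36.7% with 50% of both, 91.2% and 48.7% with gaps up to 500 bp, and 92.1% and 43.5% for peaks of at least 100 bp. With the WT list cut by score to the SV129 length it was 74.7% and 71.9%, and with the upper 50% of WT scores 73.5% and 73.3%. The share of nucleosome calls was 37.4% in SV129 and 36% in WT with 50% of the call covered, 28.9% and 26.5% with centres within 20 bp, and 30.9% and 29.7% for joined calls. Genes with a peak in 1 background numbered 869 for SV129 and 521 for WT with the WT list cut by score, and 138 for SV129 with at least 100 bp covered. Within 250 and 1000 bp of gene ends lay 7.04% and 15.9% of SV129-only peaks, 4.64% and 10.8% of WT-only peaks, 3.61% and 10.8% of SV129-only calls, and 3.62% and 8.41% of WT-only calls. So the order of calls between backgrounds at gene ends was lost at 250 bp. The median peak width in SV129 was 152 bp for peaks joined up to 150 bp apart, 177 bp for peaks of at least 100 bp and 157 bp for shared peaks. In WT it was 176 bp for peaks of at least 100 bp, 203 bp for the list cut by score and 220 bp for shared peaks. The width ratio of SV129 over WT was 0.746 over all overlapping pairs and 0.764 for summed widths. Gene counts by nucleosome calls and both counts of recurring sites stayed within 1.5 times. Depth, being unknown, limits any statement on sites missing from a list.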
